A study of Mus musculus with 12 samples.

Results

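The genes described here are those of the cardiac natriuretic peptide system: the hormone genes Nppa and Nppb, the protease gene Corin and the receptor genes Npr1, Npr2 and Npr3. They were taken by name, as every probe set annotated to 1 of these genes alone, which gave 8 probe sets for 6 genes out of 22690 probe sets on the array. Of these 8, 6 passed the filter on low signal, for 5 genes. The single probe set of Npr1 and 1 of the 3 of Npr3 were too dim and are given by their values only. Total RNA of mouse cardiac muscle was measured on 12 Affymetrix arrays, 3 for each of 4 groups. The groups were control hearts and mdx hearts at 8 weeks, and control hearts and mdx hearts at 10.5 months. The mdx mouse carries a mutation of the dystrophin gene Dmd in all its cells and is a standard model of Duchenne muscular dystrophy, and the series names the controls as wild type. The sources used here did not give the strain, the sex or how the hearts were dissected. Nothing in the labels says whether the 3 arrays of a group came from separate animals, so p-values measure the spread between these arrays, which may be technical.

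Natriuretic peptides are hormones that heart muscle cells release when they are stretched. Atrial natriuretic peptide, from Nppa, is made mainly in atrial muscle in the adult, and its gene and Nppb, which encodes brain natriuretic peptide, are switched on in ventricular muscle under load. Corin, a protease on the surface of the muscle cell, cuts the precursor of the atrial peptide into the active hormone. The receptor encoded by Npr1 makes cyclic GMP when it binds either hormone, the receptor encoded by Npr2 does so for C-type natriuretic peptide, and the receptor encoded by Npr3 mainly removes the peptides from the circulation.

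Nppa and Nppb are neighbours on chromosome 4, with 0 annotated genes between them, and their promoters are shown because both genes had their highest mean in old mdx hearts. Both windows were taken from RefSeq for build GRCm38.p6, run from 250 bases before to 50 bases after the annotated start, and lie on the plus strand, that of Nppa at chr4:148000472-148000771 and that of Nppb at chr4:147985650-147985949. Capitals mark letters that match a searched motif.
Nppa: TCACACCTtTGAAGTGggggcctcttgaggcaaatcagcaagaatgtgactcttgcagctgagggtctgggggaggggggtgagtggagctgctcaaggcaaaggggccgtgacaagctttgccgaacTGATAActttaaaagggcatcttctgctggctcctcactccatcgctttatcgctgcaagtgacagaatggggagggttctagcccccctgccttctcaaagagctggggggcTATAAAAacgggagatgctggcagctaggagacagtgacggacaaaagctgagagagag
Nppb: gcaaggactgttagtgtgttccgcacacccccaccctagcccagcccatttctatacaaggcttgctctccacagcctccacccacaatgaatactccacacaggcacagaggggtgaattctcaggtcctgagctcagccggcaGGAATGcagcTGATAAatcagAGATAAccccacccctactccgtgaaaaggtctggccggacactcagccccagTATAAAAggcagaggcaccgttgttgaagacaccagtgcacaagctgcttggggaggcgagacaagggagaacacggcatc

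The motifs were searched on both strands, and no matches overlapped. The letters TGATAA, a form of the site of the cardiac GATA factors, stood 122 to 117 bases before the start in Nppa and 95 to 90 bases before it in Nppb. They occurred in 9.05% of all 32851 promoter windows of this length. Nppb also held AGATAA, another form of this site, 84 to 79 bases before its start (in 11.2% of windows). The letters GGAATG, the core of the site of TEAD factors, stood 105 to 100 bases before the start of Nppb (in 14.7% of windows). Nppa held TNAAGTG, the core of the NKX2-5 site, 241 to 235 bases before its start (in 11.5% of windows), and the T-box letters TCACACCT 250 to 243 bases before it (in 1.28% of windows). Both windows held TATAAAA, the letters of a TATA box (in 5.48% of windows). They stood 9 to 3 bases before the annotated start in Nppa and 31 to 25 bases before it in Nppb. All distances are from the annotated start, whose place was not tested. A CArG box, the binding sequence of serum response factor, was searched too and not matched in either window (it occurred in 1.63% of windows). None of these motifs matched in the windows of Corin, Npr1, Npr2 or Npr3. A match is a description of the letters and not a sign that a factor was bound.

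Levels are given as scaled signal, the deposited intensity brought to a common trimmed mean of 500 per array. Differences are on the log2 scale after adding an offset of 32, with the standard error (SE) of a limma fit to all 12 arrays. A change was called at a Benjamini-Hochberg adjusted p below 0.05 over 14932 tested probe sets. Dmd, the mutated gene, ran from 159 to 286 over the 6 mdx arrays and from 607 to 839 over the 6 control arrays. Muscle genes of the heart were high on every array (6 genes such as Myh6 and Tnnt2 summed to 93945 to 276647), while 9 genes of fast skeletal and extraocular muscle summed to 429 to 778. This bears on a keyword in the sample records that names extraocular muscle. The extraocular myosin gene Myh13 was not analysed here. On 4 arrays bright probe sets reached further than on the other 8, namely control replicate 2 and mdx replicates 1 and 2 at 8 weeks and mdx replicate 3 at 10.5 months. Nppa and Nppb are bright, so their values are also given with this signal range as a block.

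**Figure D1:**
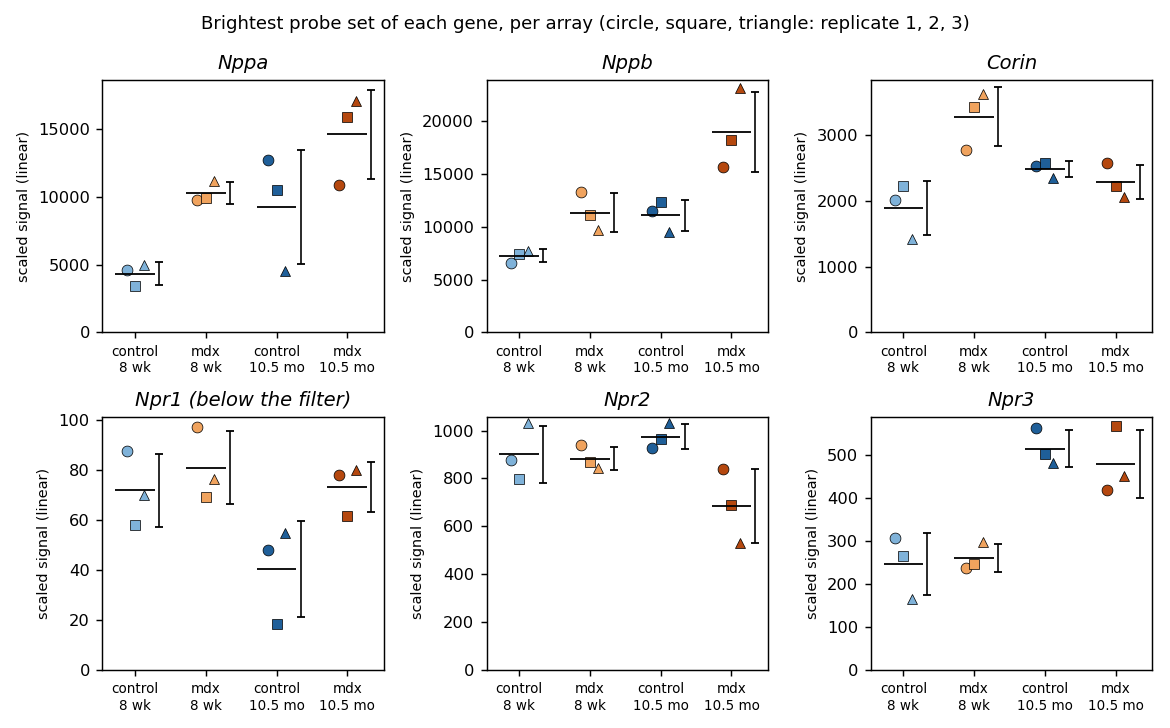
Scaled signal (linear axis from 0) of the brightest probe set of each gene on each of the 12 arrays, by group; symbols are replicates 1, 2 and 3, the line is the mean and the bar the SD over 3 arrays. Nppb was higher in mdx than in control hearts at both ages without overlap, while Corin was higher in mdx hearts only among the 8-week arrays and Npr3 stood higher in old than in young hearts of both genotypes.

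Of the hormone genes, Nppb had the more orderly levels. Its scaled signal was 6583, 7447 and 7752 in control hearts and 13318, 11089 and 9688 in mdx hearts of that age, 8 weeks. In the older groups control hearts had 11525, 12335.5 and 9483 and mdx hearts had 15659, 18218 and 23125. Mdx hearts thus lay above controls of the same age on every array, and old hearts lay above young hearts of the same genotype on every array. The means were 7261 ± 606 in young controls, 11114.7 ± 1470 in old controls, 11365 ± 1831 in young mdx hearts and 19000.4 ± 3794 in old mdx hearts (SD, n = 3). The middle pair of groups overlapped and did not differ beyond its spread.

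On the log2 scale Nppb was higher in mdx hearts by 0.64 ± 0.18 at 8 weeks, 1.55-fold, and by 0.76 ± 0.18 at 10.5 months, 1.696-fold. By limma neither difference passed the test over all probe sets (adjusted p = 0.0900 and 0.349). The difference at 10.5 months was not shown to exceed that at 8 weeks (0.13 ± 0.26, adjusted p = 0.890, 95% interval -0.43 to 0.68). Of all tested probe sets 9.51% were higher in mdx hearts without overlap at 8 weeks, 7.51% at 10.5 months and 0.509% at both ages. All 4 steps of Nppb, by genotype and by age without overlap, were found in 0.0335% of tested probe sets, Nppb included. This order was counted after it was seen in the values of Nppb, so its rarity is a description and no test. Averaged over both ages, a contrast added after the values were seen, Nppb was higher in mdx hearts by 0.70 ± 0.13 with limma's adjusted p = 0.050014, just short of the threshold. It passed without mdx replicate 3 at 8 weeks (0.75, adjusted p = 0.0336) and without mdx replicate 1 at 10.5 months (0.76, adjusted p = 0.0477).

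The signal range touched these sizes. With it as a block the differences of Nppb were 0.54 at 8 weeks and 0.67 at 10.5 months, and after quantile normalization they were 0.45 and 0.59. The array with the highest Nppb, mdx replicate 3 at 10.5 months, also had the highest ratio of 3' to 5' actin control probe sets (1.44, against at most 1.289 elsewhere), a sign of RNA quality. Its ratio for the Gapdh control probe sets, 0.796, lay within the range of the other arrays (0.747 to 0.973). Without that array the difference at 10.5 months was 0.61, and the part of RNA quality in the result was not tested. Genes of heart muscle itself, which are bright too, had positive differences at 8 weeks in 6 of 6 cases, with a median of 0.33 and 0 called by limma, 0 having an unadjusted p below 0.05. Among them Myh6 was at 0.61 ± 0.32 and Tnnt2 at 0.63 ± 0.35, about the size of the difference of Nppb. At 10.5 months 4 of 6 were positive, with a median of 0.19, Myh6 at -0.01 and Tnnt2 at 0.20. Among the 8-week arrays Myh6 and Tnnt2 were highest on those of wider signal range. Myh6 was 36059 in control replicate 2 and 61245 and 44294 in mdx replicates 1 and 2. On the other arrays of that age it was 19720 and 22258 in control hearts and 20734 in mdx hearts. The part of the heart muscle genes in the difference of Nppb at 8 weeks was not tested.

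Nppa, the atrial peptide gene, showed the largest fitted difference of the 5 tested genes in young mdx hearts. Its scaled signal at 8 weeks was 4635, 3412 and 4983 in control hearts and 9769, 9902 and 11201 in mdx hearts. In young mdx hearts 9.51% of tested probe sets were higher than in controls without overlap. For Nppa every young mdx array lay far above every young control array, with means of 4343 ± 825 and 10290.6 ± 791 (SD, n = 3). The difference was 1.25 ± 0.31 on the log2 scale, 2.39-fold, and by limma did not pass the test over all probe sets (adjusted p = 0.0548). It passed without control replicate 3 at 10.5 months (adjusted p = 0.0192), and without control replicates 1 and 2 at 10.5 months (adjusted p = 0.0328), arrays outside this comparison that enter only through the shared spread. Blocking on the signal range gave Nppa differences of 1.29 at 8 weeks and 0.79 at 10.5 months.

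At 10.5 months the control arrays of Nppa disagreed. Its signal was 12705, 10540.4 and 4555 in control hearts and 10868, 15942 and 17080.0 in mdx hearts. Control replicate 3 stood within the range of young controls, while control replicates 1 and 2 stood within the range of the young and old mdx arrays, so that the groups overlapped. The means were 9267 ± 4221 and 14629.9 ± 3307 (SD, n = 3), and the difference of 0.76 ± 0.31 did not pass the test (adjusted p = 0.666). The mdx differences at the 2 ages were not shown to differ (-0.50 ± 0.44, adjusted p = 0.694, 95% interval -1.45 to 0.46).

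Nppa was therefore read beside Myl7, which encodes an atrial light chain of myosin and marks how much atrial tissue a sample holds. Myl7 was 476, 239 and 462 in young control hearts and 805, 895 and 567 in young mdx hearts. The old control hearts had 3554, 2216 and 131, and the old mdx hearts 269.8, 151 and 284. Old control replicates 1 and 2 thus had the highest Myl7 of all 12 arrays, and old control replicate 3 the lowest. In young hearts the mdx arrays were higher in both genes. In old mdx hearts the highest Nppa of the series came with Myl7 of at most 284, below 2 of the 3 young control arrays.

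**Figure D2:**
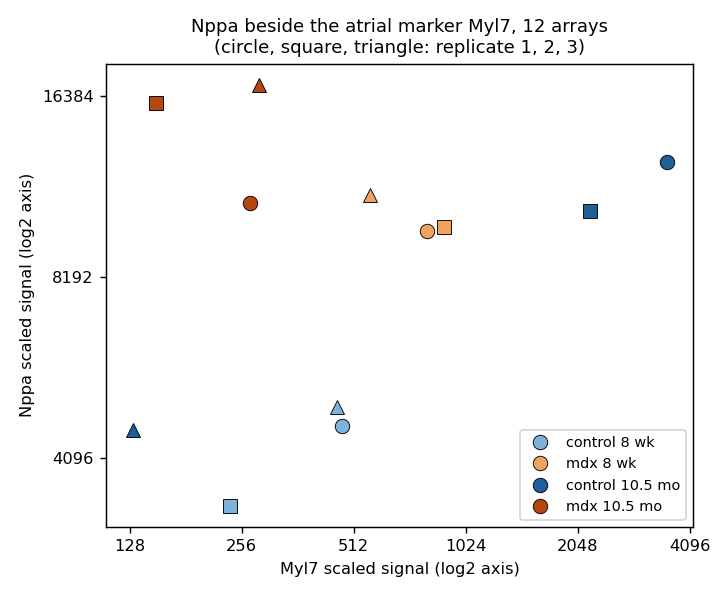
Scaled signal of Nppa against that of Myl7, both on log2 axes, for 12 arrays coloured by group, with symbols for replicates 1, 2 and 3. The old mdx arrays sit at the upper left, with Nppa from 10868 to 17080.0 at Myl7 from 151 to 284, and old control replicate 3 sits at the lower left, with Nppa of 4555 at Myl7 of 131.

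Of the other atrial markers Myl4, Sln and Bmp10 varied widely among old controls, and Kcnj3, Kcnj5, Kcna5 and Nr2f2 varied less. In old control replicates 1, 2 and 3 Myl4 was 3694, 2489 and 231, while Kcnj3 was 742, 665 and 619 and Kcna5 was 718, 708 and 579. Kcna5 thus set these arrays apart far less than Myl7 did. The 9 listed atrial genes, all measured and Myl7 included, summed to 2686 to 3506 in young controls, 3039.6 to 3986 in young mdx hearts, 1988 to 12084 in old controls and 2021 to 2414 in old mdx hearts. Sln, which encodes sarcolipin, was 2242 and 1220.0 in old control replicates 1 and 2, 9.1 in replicate 3, and 11.8 to 91.6 in old mdx hearts, and the connexin gene Gja5 was at 24.4 or less on every array. At 8 weeks 6 of the 8 tested atrial markers had positive differences, with none called higher, and 1 was called lower, the potassium channel gene Kcna5 (-1.10 ± 0.19, limma's adjusted p = 0.0173), where 0.911% of tested probe sets were called lower. At 10.5 months all 8 were negative and by limma 0 were called, 4 having an unadjusted p below 0.05, as had 7.37% of tested probe sets. In RNA from whole tissue, fewer cells of a type and less RNA per cell cannot be told apart, and neither can a larger atrial share and a higher level in the same cells.

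With Myl7 as a covariate in the fit, the mdx difference of Nppa was 0.97 ± 0.21 at 8 weeks (adjusted p = 0.0552) and 1.39 ± 0.25 at 10.5 months (adjusted p = 0.156). The added mean over both ages was then 1.18 (adjusted p = 0.00870), against 1.01 ± 0.22 (adjusted p = 0.0971) without the covariate. Without control replicate 3 the difference at 10.5 months was 0.31. Without control replicates 1 and 2 together it was 1.65, which sets 3 mdx arrays against 1 control array and takes the spread from the other groups. For Nppb the covariate left differences of 0.56 and 0.92. The covariate enters with a common slope for all groups. Within groups Myl7 spread by far the most among old controls (3554, 2216 and 131), so the slope rests mainly on those arrays. Whether it holds in the other groups, young hearts included, was not tested. Every difference, SE and adjusted p given with this covariate depends on that slope and is no general correction for atrial share.

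Over the 10 arrays other than old control replicates 1 and 2, which stood apart in Myl7 by 1.28 on the log2 scale, log2 Nppa and log2 Myl7 had a Pearson r of 0.0873 (permutation p = 0.801) and a Spearman rho of 0.152 (permutation p = 0.684). Without the 2 of these arrays farthest from the median of Myl7, r was -0.20 over 8 arrays (exact permutation p = 0.636). These values pool arrays of 4 groups whose means differ in both genes, so they do not describe a relation within a group. This was the only relation between 2 genes that was tested, and no pooled r is given because of the separate arrays.

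Corin, the protease gene, was the only 1 of the 5 tested genes called between mdx and control hearts, and only at 8 weeks. Its scaled signal there was 2009, 2220.4 and 1425 in control hearts and 2772, 3428 and 3630.3 in mdx hearts. The groups thus did not overlap, with mdx hearts higher, as in 9.51% of tested probe sets. The rise was 0.80 ± 0.18 on the log2 scale, 1.74-fold (limma, adjusted p = 0.0407), in a comparison in which 1.39% of tested probe sets were called higher. At 10.5 months Corin was 2532, 2580.2 and 2349 in control hearts and 2575, 2224 and 2064 in mdx hearts. Here the groups overlapped and the difference was -0.12 ± 0.18 (adjusted p = 0.904, 95% interval -0.51 to 0.26). The mdx difference at 10.5 months minus that at 8 weeks was -0.93 ± 0.25 (95% interval -1.47 to -0.38), which by limma did not pass the test over all probe sets (adjusted p = 0.176). So the larger difference at 8 weeks was not shown to be particular to that age.

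The call for Corin lay close to the threshold. It was lost without control replicate 1 or 3 or mdx replicate 2 or 3 at 8 weeks, and without control replicate 1, 2 or 3 or mdx replicate 2 at 10.5 months. The size was then 0.62 to 0.86 with adjusted p = 0.0580 to 0.136 by limma. When the 8-week arrays alone were fitted the adjusted p was 0.184, with the replicate block it was 0.0629, without control replicates 1 and 2 at 10.5 months together it was 0.0941, and with Myl7 as a covariate the rise was 0.80 (adjusted p = 0.0760).

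Among the receptors, Npr3 differed by age and not detectably by genotype. The brightest of its 3 probe sets was 306, 264 and 165 in young control hearts and 236, 247 and 296 in young mdx hearts. The old control hearts had 562, 501 and 480.4, and the old mdx hearts 417, 567 and 449.7. In this probe set all old arrays lay above all young arrays, and within each age the genotypes overlapped. Of all tested probe sets 12.2% were higher with age without overlap in control hearts and 14.7% in mdx hearts. With age Npr3 was higher by 1.01 ± 0.20 in control hearts, 2.02-fold (limma, adjusted p = 0.0625), and rose by 0.80 ± 0.20 in mdx hearts, 1.74-fold (adjusted p = 0.0228).

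The mdx differences of Npr3 were 0.10 ± 0.20 at 8 weeks (95% interval -0.32 to 0.53) and -0.11 ± 0.20 at 10.5 months (95% interval -0.53 to 0.32), with adjusted p of 0.827 and 0.930 by limma. The probe sets of Npr3 disagreed. The other tested one, at 55.3 to 135 over the 12 arrays, had age differences of 0.40 ± 0.19 in controls and -0.08 ± 0.19 in mdx hearts (adjusted p = 0.411 and 0.814), and the dimmest, at 16.2 to 103, was not tested. With the mean of the tested probe sets the age difference in mdx hearts was 0.36 (adjusted p = 0.187). The call in mdx hearts was also lost without mdx replicate 1 or 2 at 8 weeks or mdx replicate 2 or 3 at 10.5 months (limma, adjusted p = 0.0520 to 0.0937), and without control replicates 1 and 2 at 10.5 months (adjusted p = 0.0503).

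Npr2, the receptor gene for C-type natriuretic peptide, was level in young hearts, at 876, 796 and 1031 in control hearts and 938, 869.6 and 843 in mdx hearts. The old control hearts had 929, 964 and 1032, and the old mdx hearts 838, 689 and 528. Old mdx arrays were thus below old control arrays without overlap, as were 10.6% of tested probe sets in that comparison. The difference was -0.51 ± 0.17 at 10.5 months and -0.02 ± 0.17 at 8 weeks, and by limma neither passed the test (adjusted p = 0.587 and 0.965). The lowest value came from mdx replicate 3, the array with the highest actin ratio and a Gapdh ratio within the range of the others. Without that array the difference was -0.35.

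The probe set of Npr1, the receptor gene for Nppa and Nppb peptides, was dim, with a mean of 66.4 over the 12 arrays against the minimum of 100 for testing. It was 87.3, 58.0 and 69.7 in young control hearts and 97.0, 68.9 and 76.1 in young mdx hearts. The old control hearts had 47.7, 18.4 and 54.6, and the old mdx hearts 77.8, 61.5 and 79.7. The old mdx arrays lay above the old control arrays, near the offset of 32. Of the tested probe sets, which leave Npr1 out, 7.51% were higher there without overlap. The share among dim probe sets was not counted. When all probe sets were fitted without the filter, the difference was 0.57 ± 0.21 at 10.5 months (adjusted p = 0.796) and 0.12 ± 0.21 at 8 weeks (adjusted p = 0.806). In the heart Npr1 and Npr3 are known mainly from endothelium and endocardium. The 9 tested genes of these cells summed to 6737 to 7874 in young controls, 5722 to 7152 in young mdx hearts, 6093 to 6618 in old controls and 4925 to 6319 in old mdx hearts, and their part in the receptor values was not tested.

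Of the hormone genes, Nppb was called with age in mdx hearts and Nppa in neither genotype. Nppb rose by 0.73 ± 0.18 from 8 weeks to 10.5 months in mdx hearts, 1.66-fold (limma, adjusted p = 0.0231), and was higher by 0.61 ± 0.18 in control hearts (adjusted p = 0.218). Nppa was higher with age by 0.98 ± 0.31 in control hearts and by 0.48 ± 0.31 in mdx hearts (adjusted p = 0.243 and 0.323). The first of these was 1.43 without old control replicate 3 (adjusted p = 0.0460) and 0.09 without old control replicates 1 and 2, the arrays of high Myl7. With Myl7 as a covariate, its slope resting mainly on the old controls, Nppa rose by 0.97 with age in mdx hearts (adjusted p = 0.0339). With this covariate Npr3 was no longer called there (0.81, adjusted p = 0.0607). Corin was lower in old than in young mdx hearts by limma's -0.51 ± 0.18 (adjusted p = 0.0806) and higher in old than in young controls by 0.42 ± 0.18 (adjusted p = 0.374), without overlap in either case. Of all tested probe sets 14.7% were higher and 15.5% lower in old than in young mdx hearts without overlap, and 12.2% were higher in old than in young control hearts.

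Of the 5 tested genes, 2 were called higher with age in mdx hearts, where 5.45% of all tested probe sets were called higher, and 0 in control hearts by limma, where 0.0938% were. In control hearts 4 of the 5, all but Npr2, had an unadjusted p below 0.05, as had 12.2% of all tested probe sets. The call of Nppb in mdx hearts was lost without mdx replicate 2 or 3 at 8 weeks or mdx replicate 2 or 3 at 10.5 months (limma, adjusted p = 0.0530 to 0.0820), and when only the mdx arrays were fitted (adjusted p = 0.0789). In mdx against control hearts 1 of 5 was called at 8 weeks, where 1.39% of tested probe sets were called higher. At 10.5 months 0 of 5 were called by limma, where 0.0469% of tested probe sets were called and 7.37% had an unadjusted p below 0.05. Before adjustment Nppa, Nppb and Npr2 of these 5 were below 0.05 at 10.5 months (unadjusted p = 0.0310, 0.00102 and 0.00990). For the difference between the ages 0 of 5 were called by limma, where 0.154% of tested probe sets were, and 1, Corin, had an unadjusted p below 0.05, as had 12.1% of them. For the mean over both ages 0 of 5 were called, where 0.201% of tested probe sets were, and 4, all but Npr3, had an unadjusted p below 0.05, as had 13.6% of them.

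**Figure D3:**
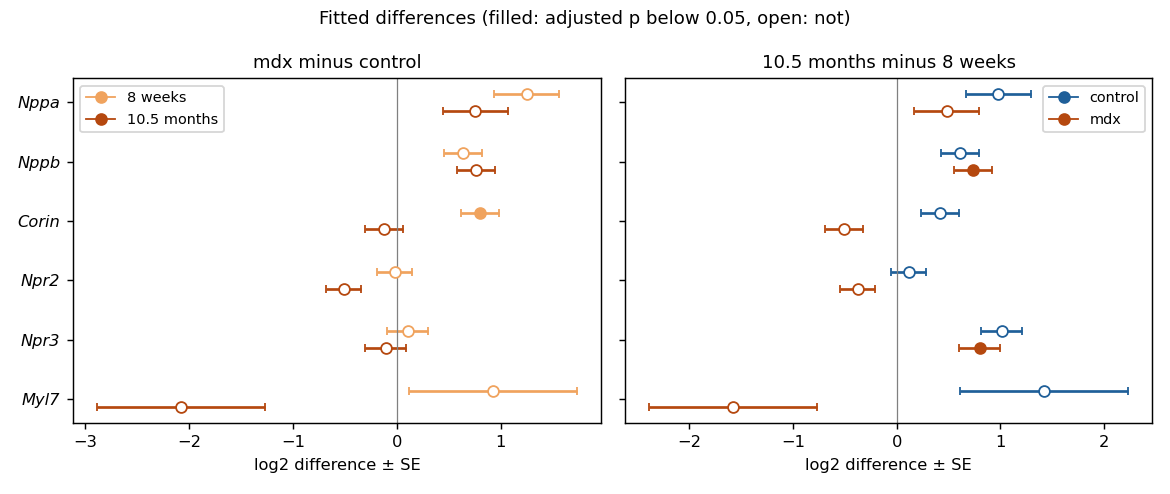
Fitted log2 differences with their standard errors for the 5 tested genes and Myl7, mdx minus control at each age (left) and 10.5 months minus 8 weeks in each genotype (right); filled points had an adjusted p below 0.05. Nppa and Nppb are to the right of 0 in all 4 contrasts, and the filled points are Corin at 8 weeks and Nppb and Npr3 with age in mdx hearts.

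Genes that process or clear the peptides showed no call. Of 9 listed genes 6 were tested, and by limma 0 were called at either age between mdx and control hearts. Of all tested probe sets only 2.3% were called at 8 weeks and 0.0469% at 10.5 months. At an unadjusted p below 0.05 there was 1 listed gene at 8 weeks and 0 at 10.5 months, where 7.37% of tested probe sets were. The list medians were -0.02 at 8 weeks and -0.04 at 10.5 months, close to those of all 8852 genes (-0.01 and -0.02). Furin, the protease that cuts the precursor of brain natriuretic peptide, was at -0.24 ± 0.15 and -0.28 ± 0.15, and Ide, an enzyme that degrades insulin and natriuretic peptides, at -0.39 ± 0.17 and -0.01 ± 0.17. Nppc, which encodes C-type natriuretic peptide, was too dim to be tested (mean 56.1).

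The list of cyclic GMP signalling holds genes downstream of the receptors and genes of the separate nitric oxide route, such as Nos1. Of its 22 genes 13 were tested, and by limma 0 were called between mdx and control hearts at either age. Their medians were -0.06 at 8 weeks and -0.07 at 10.5 months, and 0 had an unadjusted p below 0.05 at either age. Of all tested probe sets 2.3% were called at 8 weeks and 0.0469% at 10.5 months, where 7.37% had an unadjusted p below 0.05. Within the list the smallest p belonged to Pde2a, a phosphodiesterase that cyclic GMP stimulates (-0.31 ± 0.16 and -0.33 ± 0.16), and to Vasp, a target of cyclic GMP-dependent protein kinase (-0.29 ± 0.15 and -0.07 ± 0.15). With age in mdx hearts 1 was called, the nitric oxide synthase gene Nos1, which was lower (-0.82 ± 0.18, adjusted p = 0.0140, in a comparison with 5.97% of tested probe sets called lower) and was named after its value was seen. The kinase genes Prkg1 and Prkg2 were too dim to be tested (means of 86.9 and 90.3).

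Of 24 listed transcription regulators of the natriuretic peptide genes 21 were tested, and by limma 0 were called between mdx and control hearts at either age. At 8 weeks 14 of 21 had negative differences (median -0.12), and at 10.5 months 18 of 21 did (median -0.21). The medians of all 8852 genes were -0.01 and -0.02. At an unadjusted p below 0.05 there were 2 regulators at 8 weeks and 3 at 10.5 months, where 7.37% of tested probe sets were. The share below that p at 8 weeks is not given here. Of all tested probe sets 2.3% were called at 8 weeks and 0.0469% at 10.5 months. Hand2, a factor of the developing heart, came nearest at 8 weeks (-0.62 ± 0.16, adjusted p = 0.0623) and was at -0.31 ± 0.16 at 10.5 months. Nfatc1, a factor that calcineurin activates, came nearest at 10.5 months (-0.60 ± 0.19, adjusted p = 0.571) and was at 0.06 ± 0.19 at 8 weeks. With age in mdx hearts 3 of 21 were called lower, where 5.97% of tested probe sets were: Mef2d, Nfatc1 and Nfatc4 (-0.80, -0.71 and -1.27), Mef2d and Nfatc4 being named after their values were seen.

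Of 17 listed genes of other vasoactive hormones and their receptors 8 were tested and 0 were called by limma at either age. Their medians were -0.21 at 8 weeks and -0.13 at 10.5 months, with 1 and 0 at an unadjusted p below 0.05. Of all tested probe sets 2.3% were called at 8 weeks and 0.0469% at 10.5 months, where 7.37% had an unadjusted p below 0.05. Adm, which encodes the vessel-relaxing peptide adrenomedullin, was at -0.40 ± 0.19 and -0.01 ± 0.19, and the endothelin receptor gene Ednrb at 0.41 ± 0.18 and -0.01 ± 0.18.

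Other load-responsive muscle genes gave calls in both directions. Of 9 listed genes 7 were tested. At 8 weeks 4 had positive differences (median 0.35), 1 being called higher and 1 lower, and at 10.5 months 5 did (median 0.19), 1 being called higher. At an unadjusted p below 0.05 there were 3 at 8 weeks and 2 at 10.5 months, where 7.37% of tested probe sets were. The share of all tested probe sets below that p at 8 weeks is not given here. Of all tested probe sets 1.39% were called higher at 8 weeks, and 0.0469% were called in either direction at 10.5 months. Ccn2, a matrix-associated growth factor, rose by 0.83 ± 0.18 at 8 weeks and by 1.38 ± 0.18 at 10.5 months (limma, adjusted p = 0.0392 and 0.0121). Acta1, the skeletal actin gene of the fetal heart programme, fell by 1.20 ± 0.23 at 8 weeks (adjusted p = 0.0251, with 0.911% of tested probe sets called lower), where Nppa and Nppb were higher, and was at -0.06 ± 0.23 at 10.5 months. Among the tested genes not called, named here after their values were seen, the stretch-responsive gene Ankrd1 was at 0.88 ± 0.25 at 8 weeks (limma, adjusted p = 0.0848) and 0.50 ± 0.25 at 10.5 months. Myh7, the slow myosin gene of the fetal programme, was at 0.47 ± 0.33 and 0.07 ± 0.33, and the cardiac actin gene Actc1 at 0.35 ± 0.36 and 0.19 ± 0.36. The remaining pair, Rcan1 and Xirp1, were at -0.02 and -0.35 at 8 weeks and 0.64 and -0.11 at 10.5 months. With age in mdx hearts Acta1, Ccn2 and the calcineurin regulator gene Rcan1 were called higher (1.82, 0.81 and 0.71), 3 of 7 in a comparison with 5.45% of tested probe sets called higher. These genes were chosen with earlier results of these data known, so their directions are a description.

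**Figure D4:**
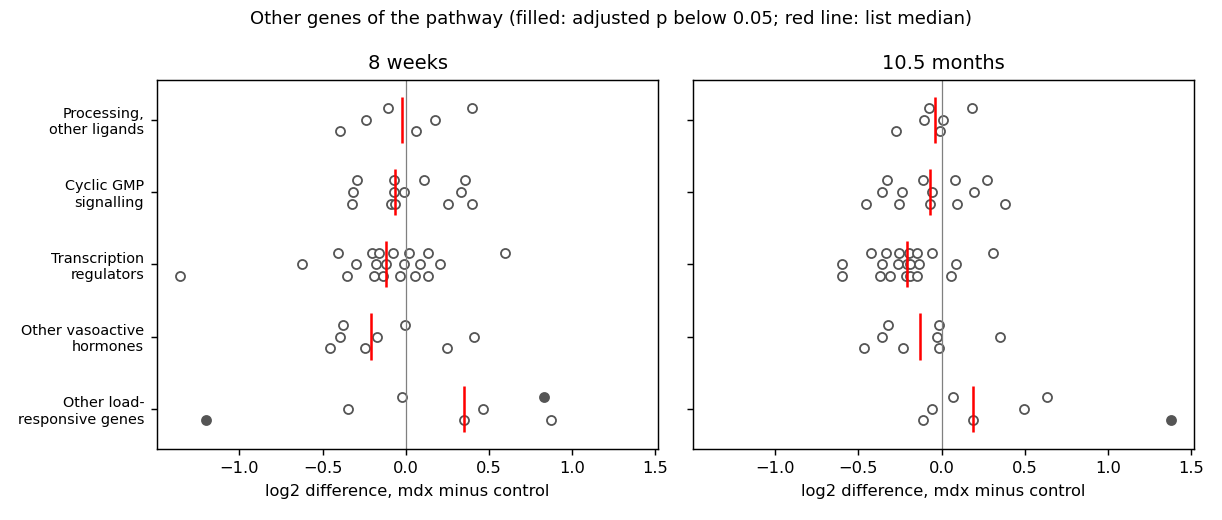
Log2 differences, mdx minus control, of the tested genes of 5 lists of related genes at 8 weeks (left) and 10.5 months (right); each point is a gene, filled where its adjusted p was below 0.05, and red lines are list medians. The medians of the first 4 lists lie between -0.21 and -0.02, that of the load-responsive genes lies at 0.35 at 8 weeks and 0.19 at 10.5 months, and the filled points are Ccn2 and Acta1 at 8 weeks and Ccn2 at 10.5 months.

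The genes with the most similar levels were found by the Pearson correlation of log2 signal over the 12 arrays, among the brightest probe sets of 8852 genes. This is a description, and the points share groups and signal range. For Nppa the highest were Igbp1 (0.93), Cenpc1 (0.90), Pigp (0.89), the collagen gene Col8a1 (0.87) and, at position 5, Nppb (0.86). For Nppb they were Inmt (0.90), 0610009B22Rik (0.90), the core clock gene Arntl (0.90), Tcta (0.90) and Sin3b (0.89), with Nppa at position 12. For Corin they were Fgd6 (0.92), the glial factor gene Sox10 (0.89), Dlgap4 (0.88), the growth factor gene Pdgfc (0.87) and Anks3 (0.87), and its correlations with Nppa and Nppb were 0.39 and 0.16.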

How the data were processed

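The authors deposited an intensity for each of 22690 probe sets on each array, on a linear scale. They had scaled the arrays, since the deposited trimmed means (2% off each end) lay between 1500.58 and 1500.91. Per the labels' protocols a standard Affymetrix protocol was used, and the summarising software was not given in the sources used here. Names came from the platform annotation, with symbols updated through RefSeq (GRCm38.p6). All arrays were brought to a trimmed mean of 500. limma 3.58.1 in R 4.3.3 fitted a mean per group to log2(signal + 32) over all 12 arrays, for the 14932 probe sets that averaged at least 100, control probe sets left out. This offset understates changes of dim genes. The fit was tested on simulated data. The brightest probe set stood for its gene. All 6 genes were named, and of each list its members called between mdx and control, or otherwise the 2 with the smallest p. The genes, lists and tests were chosen with earlier results of these data known. With 3 arrays a group, the number of arrays limits the precision. Same-numbered arrays of different groups did not deviate together over all tested probe sets (r of -0.13 to 0.13 over 18 pairs). A pairing by replicate number that touches few genes would not show in these values, so whether the numbers pair samples is not known. Alternatives were other offsets, a floor, no filter, quantile normalization, blocks, Myl7 as a covariate, fewer arrays and the mean of probe sets.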

Additional observations from a re-analysis of the deposited data

How the results depend on the processing

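The count of called genes among the 5 tested was recomputed under offsets, a floor, no filter, quantile normalization, blocks, the Myl7 covariate, smaller fits and left-out arrays. At 10.5 months and for the difference between the ages it was 0 throughout. At 8 weeks it was 1 and became 0 with the replicate block, with Myl7 as a covariate and with only the arrays compared; it was 0 to 1 without single arrays, and without old control replicate 3 or replicates 1 and 2 the 1 called gene was Nppa in place of Corin. With age in mdx hearts it was 2 and became 1 with only the arrays compared, with the mean of probe sets and without old control replicates 1 and 2; with the Myl7 covariate it was 2, with Nppa in place of Npr3; it was 0 to 2 without single arrays. With age in controls it was 0, and 0 to 1 without single arrays. For the added mean over the ages it was 0 and became 1 with the Myl7 covariate, with the mean of probe sets and without old control replicates 1 and 2; it was 0 to 1 without single arrays. The replicate block changed no other call among these genes. It took the count of all called probe sets at 8 weeks from 343 to 176, and whether the replicate numbers pair samples is not known. Over all tested probe sets the Myl7 covariate gave 152 calls at 8 weeks and only the arrays compared gave 23, while with age in mdx hearts they gave 968 and 565 against 1706. The exact permutation test of 3 against 3 arrays cannot go below 0.10 and so says nothing on stability.

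Some values changed sign; the cause was not tested. Npr2 at 8 weeks (-0.02) was 0.051 after quantile normalization and 0.051 with the signal range block, and -0.10 to 0.077 without single arrays, and Npr3 at 8 weeks was -0.12 to 0.26. For the difference between the ages Nppa was 0.42 with the Myl7 covariate and 0.40 without old control replicates 1 and 2, Nppb was -0.024 to 0.26 and Npr3 -0.37 to 0.016 without single arrays. Myl7 was at -2.08 ± 0.81 (mdx at 10.5 months, limma, adjusted p = 0.666) and 1.42 ± 0.81 (age in controls) in the main fit. These became 0.67 and -1.33 without old control replicates 1 and 2. Over 21 alternatives the mdx difference of Myl7 at 10.5 months ran from -3.45 to 0.67, and it was called lower in 1 of them (limma, adjusted p = 0.00168). The r of Nppa and Myl7 was -0.023 after quantile normalization and -0.20 without the 2 farthest arrays.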

Other observations

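The 4-step order of Nppb, higher in mdx than in control hearts at both ages and higher in old than in young hearts of both genotypes, each without overlap, was noticed in its values and then counted over all tested probe sets. It held for 5 of 14932 (0.0335%). The others were probe sets of the core clock gene Arntl, of Prg4, which encodes the joint lubricant lubricin, of Medag, a gene of fat cell development, and of Tpra1. Arntl ran from at most 231 in young controls to at least 623 in old mdx hearts, Prg4 from at most 282 to at least 656 and Medag from at most 198 to at least 371. Tpra1 spanned less, from at most 536 to at least 688. These 5 were chosen after their values were seen, and the time of day at which the hearts were taken was not given in the sources used here.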
